A study of Homo sapiens with 12 samples.

Results

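N/TERT-2G keratinocytes transfected with siRNA against ATF3 were compared with the same cells transfected with siRNA against APOE. N/TERT-2G is an immortalised human keratinocyte line, made with telomerase, that keeps many features of normal epidermal keratinocytes. The members of the comparison are 6 of the 12 bulk RNA-seq libraries of the series, 3 labelled ATF3 siRNA and 3 labelled APOE siRNA, chosen by label alone. The series also holds 3 control siRNA libraries and 3 CXCL14 siRNA libraries. The control libraries enter below only as a level for reference, without a test. All groups went through the same transfection, in which each well of a 6-well plate received 100 pmol of siRNA with 5 μl of lipid reagent and a change of medium after 6 h. No group was left without siRNA, so every comparison is between cells that received a small double-stranded RNA. All libraries come from 1 cell line. Nothing in the labels says if the 3 libraries of each siRNA came from cultures of their own, and the p-values then measure only the spread between these libraries, which may be technical.

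ATF3 is a stress-induced transcription factor of the ATF/CREB family. It binds DNA as a dimer, often with JUN proteins, and is known in immune and epithelial cells as a restraint on inflammatory genes. APOE is a secreted lipid carrier of lipoproteins that is best known for cholesterol transport, and keratinocytes make it. In the epidermis, basal keratinocytes divide on the basement membrane, spinous cells above them build desmosomes and a new keratin network, and the outermost cells assemble the cornified envelope. Cultured keratinocytes also secrete chemokines and proteases and respond to interferon and to double-stranded RNA.

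The 6 libraries held between 16598426 and 22246755 counted reads each. Correlations of log2 values between replicates of 1 group lay between 0.9922 and 0.9956. The first principal component, with 73.5% of the variance over 11494 genes, separated the 2 groups, and the second held 12.7%. Mitochondrial transcripts took 1.895 to 2.022% of the counts with ATF3 siRNA and 2.513 to 2.761% with APOE siRNA. In the control libraries they took 2.16 to 2.664%, up into the APOE siRNA range. By these measures no library stood apart from the others of its group. Levels below are CPM, reads of a gene per 1000000 counted reads, scaled by the trimmed mean of M-values (TMM). A fold change is ATF3 siRNA relative to APOE siRNA unless stated, so "higher" and "rose" mean higher with ATF3 siRNA. A gene was called at an adjusted p under 0.05.

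Each targeted transcript was lowest in the group that received its siRNA. ATF3 (chromosome 1, 212565334 to 212620777, plus strand, hg38) was at 11.7, 12.3 and 11.1 CPM in ATF3 siRNA libraries 1 to 3 and at 41.4, 37.7 and 43.1 CPM in the APOE siRNA libraries. The ATF3 siRNA libraries were thus at 28.7% of the APOE siRNA mean, a log2 fold change of -1.80 ± 0.09 (SE, n = 3 per group, adjusted p = 2.92e-07), and the control mean was 41.3 CPM. APOE (chromosome 19, 44905754 to 44909393, plus strand) was at 2.59, 4.36 and 4.40 CPM with ATF3 siRNA and at 0.103, 0.266 and 0.185 CPM with APOE siRNA, which rests on 212 against 10 reads in all. The log2 fold change was 4.30 ± 0.39 (adjusted p = 9.67e-06), and the ratio of the summed counts was 20.1 (95% exact interval 10.7 to 42.4, counting error only). An exact 2-sided permutation test over the libraries gave p = 0.1 for each of these genes, the smallest that 3 against 3 allows. The libraries of the 2 groups did not overlap for either target, and ATF3 in the APOE siRNA libraries lay beside the control level. CXCL14 (chromosome 5, 135570679 to 135579279, minus strand), the target of the third siRNA and not of either group here, also differed, at 0.223, 0.937 and 1.23 CPM against 12.04, 4.15 and 8.75 CPM. That is 43 against 454 reads and a log2 fold change of -3.44 ± 0.47 (adjusted p = 1.89e-04, exact permutation p = 0.1). The control mean of CXCL14 was 0.479 CPM, on the side of the ATF3 siRNA libraries.

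Of 14218 genes tested, 5183 (36.5%) were called, 2804 (19.7%) higher and 2379 (16.7%) lower with ATF3 siRNA. At least 2-fold differences were called for 524 genes (3.69%) that were higher and 314 (2.21%) that were lower, and at least 4-fold differences for 65 and 20. The median log2 fold change of all genes tested was -0.004. The libraries of the 2 groups did not overlap for 6898 (48.5%) of the genes tested. Protein-coding genes were called higher in 2698 and lower in 2152 of 12316 cases, whereas long intergenic RNAs were called higher in 33 and lower in 51 of 382. The count of any gene group below is read against these shares. The 6 libraries do not say which of the siRNAs a difference lies with, since each group differs from the control by its own siRNA. Loss of a target and any other effect of its siRNA cannot be told apart here, and neither was tested. Among called genes the control mean was nearer to the ATF3 siRNA mean for 2268 (80.9%) of those that were higher and for 1756 (73.8%) of those that were lower, on a log2(CPM + 0.5) scale. Of the genes called higher, the control mean was above both groups for 1256, between them for 1377 and below both for 171. Of the genes called lower, these counts were 172, 1233 and 974. In bulk RNA, fewer cells of a kind and less RNA per cell cannot be told apart.

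**Figure D1:**
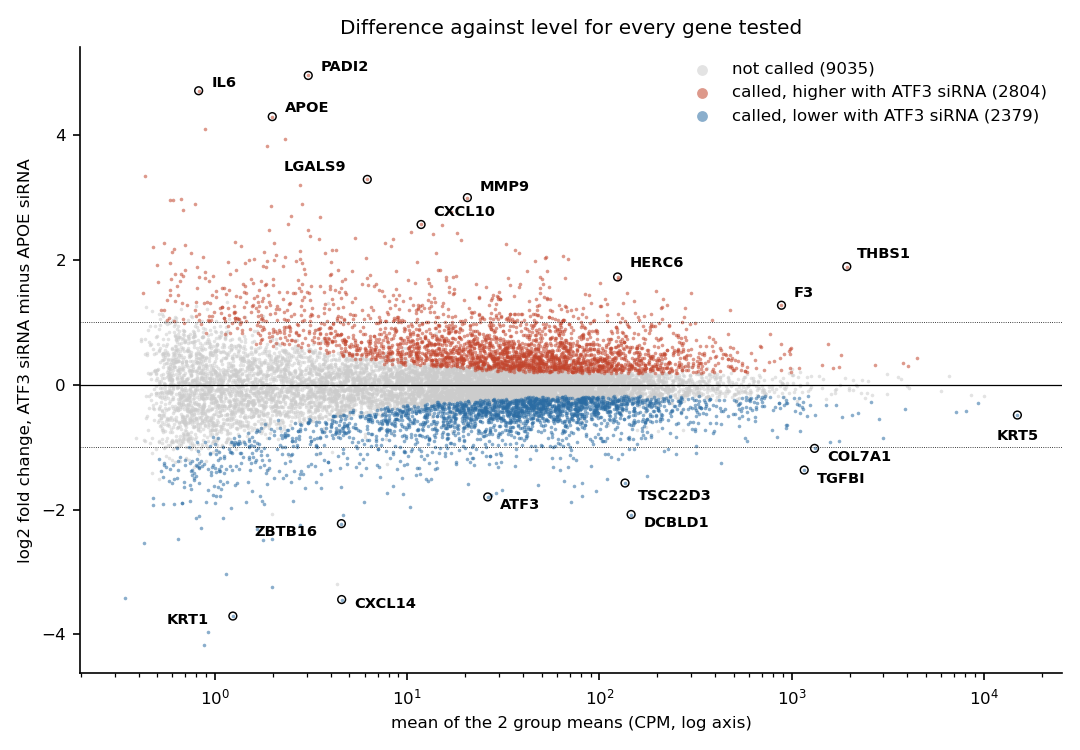
Each point is 1 of the 14218 genes tested, with the mean of both group means in CPM on a log axis and the log2 fold change of ATF3 siRNA over APOE siRNA; red and blue points were called higher and lower, grey points were not called, and dotted lines mark 2-fold. APOE at 4.30 and CXCL14 at -3.44 lie at the edges of the cloud, while THBS1 and F3 are among the abundant genes that were more than 2-fold higher.

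**Figure D2:**
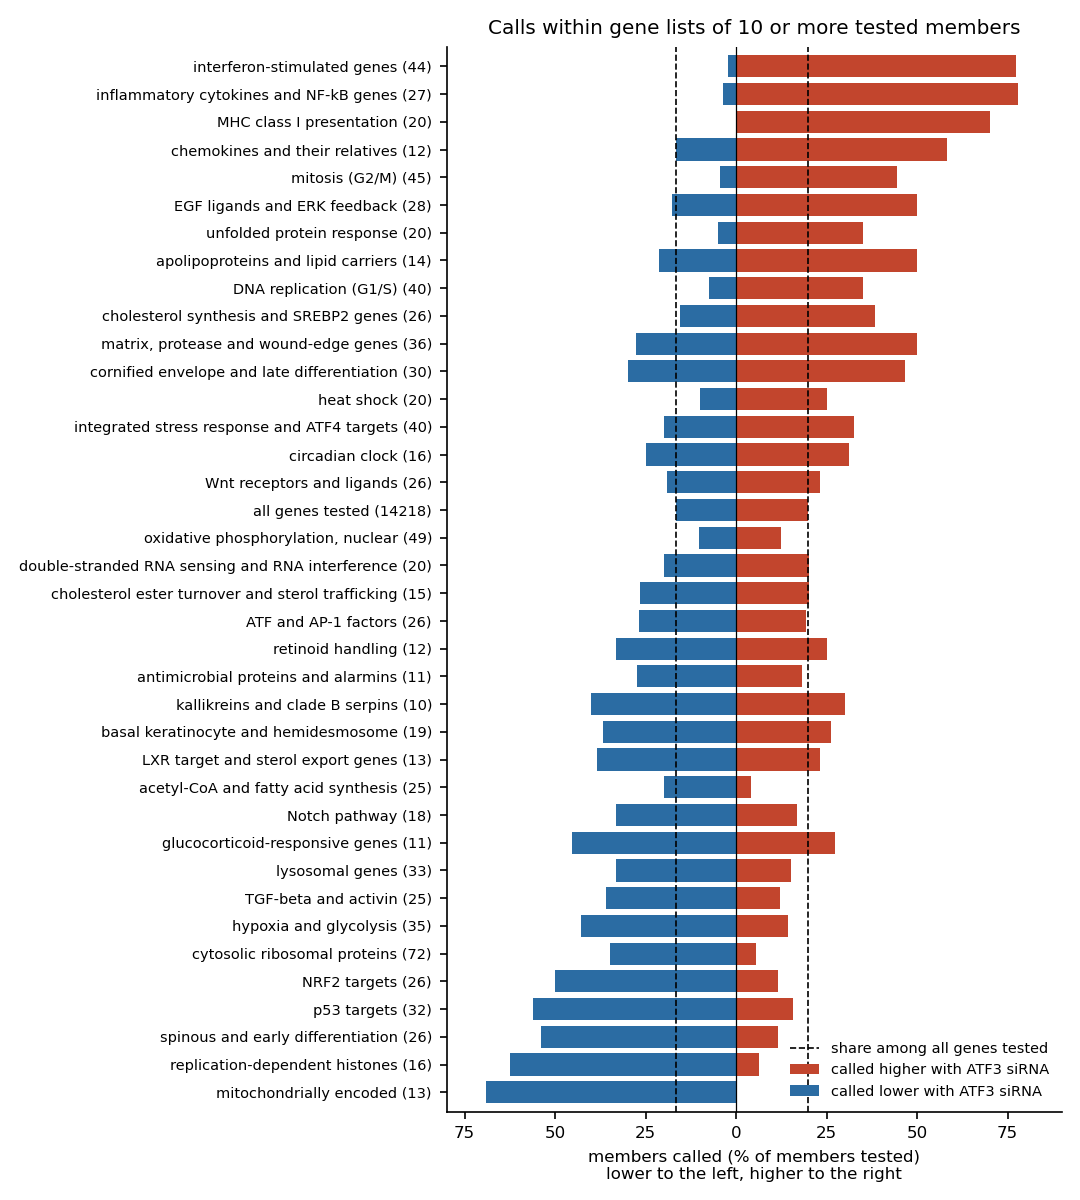
Bars show, for each gene list with 10 or more tested members (number in brackets), the percentage of tested members called higher (right, red) or lower (left, blue) with ATF3 siRNA, and dashed lines show the shares of 19.7% and 16.7% among all genes tested. The interferon, NF-kB and MHC class I lists stand far to the right of the dashed line, and the mitochondrially encoded, histone, spinous and p53 lists far to the left.

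Many genes for inflammatory mediators were higher with ATF3 siRNA. Of 12 tested chemokine genes and their relatives, 7 were higher and 2 were lower, with a median log2 fold change of 0.69. Of 27 tested cytokine and NF-kB genes, 21 were higher, 1 was lower and the median was 0.64. NF-kB is a family of dimeric factors that carry signals from receptors for IL-1, TNF and microbial products to the promoters of such genes. The letters GGGANNTTCC, a core of the NF-kB site, were searched on both strands in RefSeq promoter windows of GRCh38.p14 that run from 250 bases before the start of each gene to 50 bases after it. The search matched 5 of the 9 chemokine promoters and 5 of the 22 cytokine and NF-kB promoters that the RefSeq table holds, against 1.64% of the 10560 tested genes with a window. The stretches that hold the match are shown for the members whose values follow, with the matched letters in capitals.
IL6 (chr7:22727102-22727161, plus strand): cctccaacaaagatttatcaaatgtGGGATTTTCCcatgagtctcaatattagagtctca
CXCL1 (chr4:73869289-73869348, plus strand): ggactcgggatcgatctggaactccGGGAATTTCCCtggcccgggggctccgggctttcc
CXCL2 (chr4:74099239-74099298, minus strand): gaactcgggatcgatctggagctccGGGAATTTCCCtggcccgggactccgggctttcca
CXCL10 (chr4:76023640-76023699, minus strand): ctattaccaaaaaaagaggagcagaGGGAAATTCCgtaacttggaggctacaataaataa
CXCL11 (chr4:76036112-76036171, minus strand): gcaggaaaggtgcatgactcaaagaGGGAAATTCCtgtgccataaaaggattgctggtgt
NFKB1 (chr4:102501285-102501344, plus strand): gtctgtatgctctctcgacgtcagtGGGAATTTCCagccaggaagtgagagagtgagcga
TNFAIP3 (chr6:137867167-137867226, plus strand): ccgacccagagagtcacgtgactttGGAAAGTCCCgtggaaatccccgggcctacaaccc
In IL6 the match begins 73 bases before the start of the gene, in CXCL1 79, in CXCL2 78, in CXCL11 76 and in CXCL10 177. CXCL10 and CXCL11 carry the same 10 letters, as do the first 10 of CXCL1 and CXCL2. A match is a description of the letters and says nothing on binding in these cells. Of the 5 chemokine promoters with a match, 4 belonged to genes called higher, against 1 of the 4 without one. In the cytokine and NF-kB list the counts were 4 of 5 with a match and 14 of 17 without. Over all calls of at least 2-fold, a match was in 3.1% of higher and 1.46% of lower genes with a window.

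CXCL10 and CXCL11, ligands of CXCR3 that attract T cells, showed the largest rises among the chemokines. CXCL10 was at 19.2, 21.7 and 19.7 CPM with ATF3 siRNA and at 4.22, 2.61 and 3.33 CPM with APOE siRNA, a log2 fold change of 2.57 ± 0.16 (adjusted p = 6.11e-07). CXCL11 was at 22.4, 29.8 and 26.0 CPM against 3.50, 4.85 and 4.93 CPM (2.56 ± 0.16, adjusted p = 6.11e-07). The 3 libraries of a group lay close together for both genes, and the control means of 8.07 CPM for CXCL10 and 14.2 CPM for CXCL11 fell between the groups. The neutrophil attractant CXCL1 was at 12.6, 9.92 and 8.74 CPM against 3.60, 3.03 and 3.57 CPM (1.62 ± 0.17, adjusted p = 2.69e-05). CXCL8, which attracts the same cells, was at 15.5, 12.6 and 9.79 CPM against 4.37, 5.43 and 4.80 CPM (1.38 ± 0.18, adjusted p = 1.05e-04). For CXCL1 the control mean of 9.99 CPM was at the level of the ATF3 siRNA libraries. CXCL2 rose less, with a log2 fold change of 0.75 ± 0.16, from 6.95, 10.01 and 9.05 CPM to 16.6, 15.1 and 11.96 CPM. CCL5 rose by 1.48 ± 0.27 and CXCL16 by 0.63 ± 0.09. Besides CXCL14, the member that fell was ACKR3, a scavenging receptor for CXCL12 and CXCL11, at 0.670, 0.551 and 0.352 CPM against 2.98, 2.93 and 3.20 CPM (-2.49 ± 0.27).

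Among cytokines and their signalling proteins, IL1B, the inflammasome-processed interleukin, was at 258, 224 and 210 CPM with ATF3 siRNA and at 117, 133 and 138 CPM with APOE siRNA (0.83 ± 0.09, adjusted p = 3.63e-05). TNF was at 11.5, 8.38 and 7.39 CPM against 3.55, 4.10 and 3.88 CPM (1.25 ± 0.18), and its groups did not overlap. CSF3, the granulocyte growth factor, was at 113, 91.6 and 91.2 CPM against 34.5, 49.0 and 45.1 CPM (1.20 ± 0.13, adjusted p = 2.82e-05). The control mean of CSF3 was 125 CPM, above both groups. IL6 was rare, with 49, 34 and 12 reads in the ATF3 siRNA libraries and 0, 3 and 0 in the APOE siRNA libraries. Its summed counts differed by 29.9 times (95% exact interval 9.94 to 148.0), and its fitted log2 fold change of 4.72 ± 0.77 went to 7.92 without APOE siRNA replicate 2, the only library of that group with a read. IRAK2, a kinase-like adaptor of IL-1 and Toll-like receptors, was at 36.6, 33.5 and 33.4 CPM against 10.7, 12.1 and 10.8 CPM (1.62 ± 0.10, adjusted p = 5.38e-07). BIRC3, a ubiquitin ligase of TNF signalling, rose by 1.49 ± 0.14, and ICAM1, the leukocyte adhesion ligand, rose by 1.12 ± 0.15. For IL1B, IRAK2, BIRC3 and ICAM1 the control means of 176, 31.3, 25.2 and 5.19 CPM lay between the groups. The subunit genes NFKB2 (0.83 ± 0.07), RELB (0.57 ± 0.09) and NFKB1 (0.54 ± 0.10) rose, as did TNFAIP3 (0.64 ± 0.09), which codes for the feedback inhibitor A20. NFKBIA, a member whose promoter also holds a match, was not called (0.19). PTGS2, the inducible prostaglandin synthase, rose by 0.59 ± 0.10, IL36G by 1.10 ± 0.17 and the receptor antagonist gene IL1RN by 0.67 ± 0.13. IL18 was the only called member that was lower, at 29.9, 35.6 and 22.3 CPM against 48.1, 42.3 and 47.2 CPM (-0.65 ± 0.14, adjusted p = 3.26e-03).

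Most interferon-stimulated genes tested were higher with ATF3 siRNA. Of 44, 34 were called higher and 1 lower, with a median log2 fold change of 0.54. Interferon signalling reaches these genes through a protein complex that binds the interferon-stimulated response element (ISRE). The letters GAAANNGAAA, searched on both strands, were found in 20 of 33 promoter windows of the list (60.6%), against 2.93% of tested genes with a window and 3.65% of all 27305 RefSeq windows. The stretches with a match are shown for CXCL10 and for 4 list members, with the matched letters in capitals.
CXCL10 (chr4:76023684-76023743, minus strand): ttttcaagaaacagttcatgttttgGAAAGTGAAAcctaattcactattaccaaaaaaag
GBP1 (chr1:89065301-89065360, minus strand): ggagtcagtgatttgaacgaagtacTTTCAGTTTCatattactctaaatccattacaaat
ISG20 (chr15:88638922-88638981, plus strand): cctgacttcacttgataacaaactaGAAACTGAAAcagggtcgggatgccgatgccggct
ISG15 (chr1:1013362-1013421, plus strand): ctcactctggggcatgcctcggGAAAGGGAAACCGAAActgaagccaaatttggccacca
IFI44 (chr1:78649746-78649805, plus strand): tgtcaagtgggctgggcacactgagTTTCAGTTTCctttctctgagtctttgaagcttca
In ISG15 a pair of matches overlap. Of the 20 members with the letters, 13 were called higher and 1 lower, and of the 13 members without them, 11 were called higher, so the share called higher was no larger among members with the letters. Over all calls of at least 2-fold, the letters were in 3.62% of higher and 4.37% of lower genes with a window.

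HERC6, a ubiquitin ligase family member induced by interferon, showed the smallest adjusted p of the list. It was at 179, 197 and 196 CPM with ATF3 siRNA and at 59.0, 54.6 and 59.0 CPM with APOE siRNA (1.73 ± 0.07, adjusted p = 1.64e-07), and its control mean of 180 CPM lay beside the ATF3 siRNA libraries. GBP1, an interferon-induced guanylate-binding protein, was at 97.1, 110 and 110 CPM against 47.9, 40.9 and 47.0 CPM (1.22 ± 0.08, adjusted p = 1.49e-06). MX2, an antiviral GTPase, was at 436, 535 and 583 CPM against 264, 243 and 248 CPM (1.04 ± 0.10). For many members ATF3 siRNA library 1 was the lowest of its group. CMPK2 was at 89.8, 160 and 182 CPM against 56.2, 60.8 and 62.6 CPM (1.27 ± 0.20, adjusted p = 4.47e-04), and ISG15, a ubiquitin-like modifier, at 924, 1260 and 1343 CPM against 773, 772 and 822 CPM (0.58 ± 0.12, adjusted p = 2.43e-03). The groups did not overlap for either gene, as for 48.5% of all genes tested. The control libraries also varied, with ISG15 at 430.1, 807 and 1028 CPM and RSAD2 at 129, 247 and 284.5 CPM. RSAD2, the antiviral enzyme viperin, was at 223, 324 and 329 CPM against 127, 115 and 130 CPM (1.23 ± 0.13). ISG20, an exonuclease, rose by 1.08 ± 0.15, TRIM22 by 0.93 ± 0.09, IFI35 by 0.93 ± 0.07, OAS2 by 0.60 ± 0.08 and IFI44 by 0.58 ± 0.11. IFITM3, which blocks viral entry, was the called member in the other direction, at 637, 729 and 786 CPM against 866, 896 and 1000.0 CPM (-0.36 ± 0.09, adjusted p = 7.60e-03).

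Genes of MHC class I antigen presentation followed the same direction, with 14 of 20 higher, none lower and a median of 0.38. HLA-F, a non-classical class I gene, was at 66.1, 87.0 and 87.1 CPM against 33.6, 28.9 and 30.2 CPM (1.37 ± 0.11, adjusted p = 4.45e-06). The immunoproteasome subunits PSMB9 (1.13 ± 0.09) and PSMB10 (1.34 ± 0.14) and the peptide transporter gene TAP1 (0.58 ± 0.08) rose as well. CALR, an endoplasmic reticulum chaperone that helps to load class I molecules, rose by 0.66 ± 0.07. Of 20 genes of double-stranded RNA sensing and RNA interference, 4 were higher and 4 lower, with a median of 0.05, so the list as a whole did not lean to either side. DDX58, the cytosolic RNA sensor RIG-I, was at 136, 176 and 164 CPM against 92.8, 84.4 and 87.4 CPM (0.85 ± 0.09, adjusted p = 3.74e-05). The sensor kinase gene EIF2AK2 rose by 0.54 ± 0.08 and the sensor gene IFIH1 by 0.48 ± 0.12. EIF2AK2 and IFIH1 are also members of the interferon-stimulated list and are counted there too. AGO2, the slicing Argonaute of RNA interference, fell by 0.71 on the log2 scale (SE 0.16, adjusted p = 5.44e-03), from 209, 216 and 128 CPM with APOE siRNA to 128, 103 and 107 CPM with ATF3 siRNA, and APOE siRNA library 3 met the ATF3 siRNA range.

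**Figure D3:**
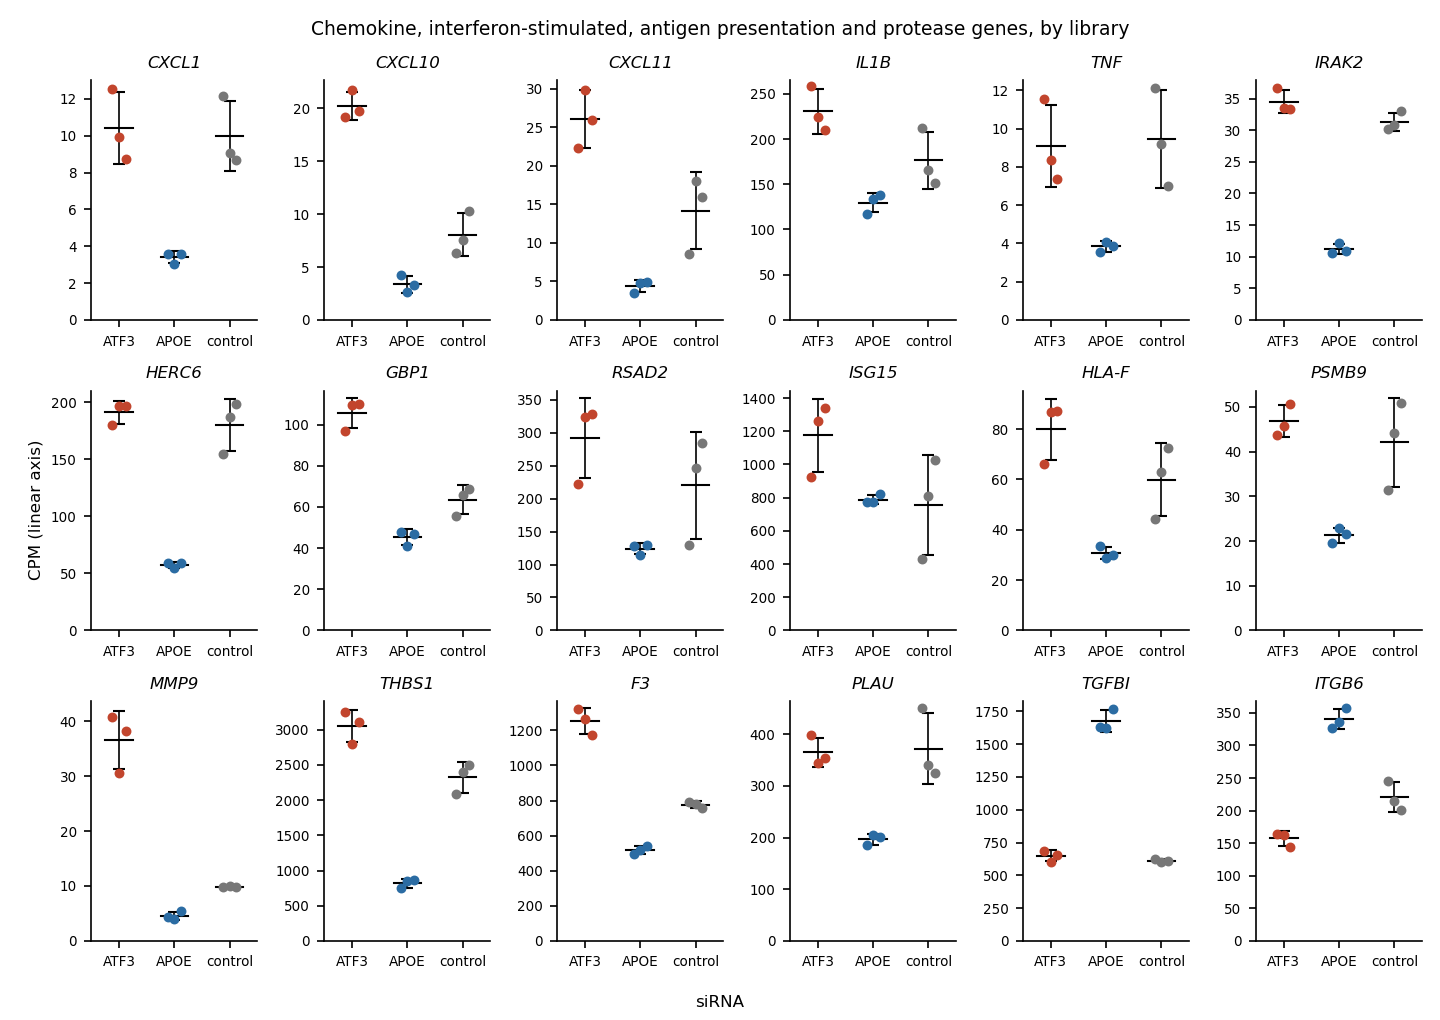
Each point is the level of a gene in 1 library in CPM on a linear axis from 0, the thick line is the mean and the error bar is 1 SD of the 3 libraries of a group. For MMP9, THBS1, F3, GBP1 and HERC6 the ATF3 siRNA points lie above all APOE siRNA points, and for TGFBI and ITGB6 they lie below; the control points are drawn for reference and were not tested.

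Proteases and matrix proteins of the wound edge split into a large group that rose and a smaller one that fell. Of 36 tested, 18 were higher and 10 lower, and 6 and 4 of them by at least 2-fold. MMP9, a gelatinase, was at 40.7, 30.7 and 38.2 CPM with ATF3 siRNA and at 4.32, 4.05 and 5.36 CPM with APOE siRNA (3.003 ± 0.14, adjusted p = 2.10e-07). Its control mean was 9.81 CPM, nearer to the APOE siRNA libraries. The stromelysin gene MMP10 rested on 81, 75 and 45 reads against 6, 2 and 5, and its summed counts differed by 14.6 times (95% exact interval 8.36 to 27.9). The collagenase gene MMP1 rested on 84 against 10 reads, with a log2 fold change of 2.90 ± 0.59 that was 2.25 without ATF3 siRNA replicate 1 and 3.68 without APOE siRNA replicate 3. THBS1, a matrix glycoprotein that binds and activates latent TGF-beta, was at 3249, 2800 and 3108 CPM against 750, 844 and 864 CPM (1.90 ± 0.08, adjusted p = 1.82e-07). F3, tissue factor, which starts the clotting cascade, was at 1320, 1264 and 1176 CPM against 495, 518 and 539 CPM (1.28 ± 0.07, adjusted p = 4.24e-07). The plasminogen activators and their partners moved the same way. PLAT rose by 1.74 ± 0.10, PLAU by 0.89 ± 0.08, its receptor gene PLAUR by 0.80 ± 0.07 and the inhibitor genes SERPINE2 and SERPINB2 by 0.75 ± 0.08 and 1.38 ± 0.08. SPARC, a matricellular protein gene, rose by 0.63 ± 0.09. The AP-1 site TGANTCA, the binding letters of JUN and FOS dimers, was found in 4 of 24 promoter windows of this list (F3, ITGA5, MMP10 and PLAUR), against 4.77% of tested genes with a window. All 4 were called higher, and of the 20 members without the letters 7 were higher and 8 lower. Over all calls of at least 2-fold, the site was in 7.49% of higher and 7.77% of lower genes with a window. Its presence thus did not follow direction over these calls. The stretches are shown for MMP10, F3 and PLAUR, whose values are given, with the site in capitals.
MMP10 (chr11:102780663-102780722, minus strand): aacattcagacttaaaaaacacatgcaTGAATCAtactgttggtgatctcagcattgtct
F3 (chr1:94541943-94542002, minus strand): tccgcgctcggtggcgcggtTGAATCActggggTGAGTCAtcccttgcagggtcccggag
PLAUR (chr19:43670323-43670382, minus strand): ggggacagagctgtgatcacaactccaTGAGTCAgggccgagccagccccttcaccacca
On the other side was TGFBI, a secreted TGF-beta-induced adhesion protein, at 685, 604 and 658 CPM against 1632, 1623 and 1770 CPM (-1.37 ± 0.07, adjusted p = 4.03e-07). ITGB6, the partner of the integrin alpha v chain in TGF-beta activation, was at 165, 163 and 144 CPM against 327, 336 and 358 CPM (-1.11 ± 0.07). ITGB8, whose product pairs with the same alpha v chain, fell by 1.15 on the log2 scale (SE 0.12).

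Basal keratinocyte and hemidesmosome genes did not move as a block, with 5 of 19 higher, 7 lower and a median of 0.03. COL7A1, the anchoring fibril collagen, was at 839, 841 and 927 CPM with ATF3 siRNA and at 1829, 1904 and 1553 CPM with APOE siRNA (-1.02 ± 0.09, adjusted p = 5.97e-06). CDH3, P-cadherin, was at 606, 580 and 619 CPM against 1049, 1066 and 1096 CPM (-0.83 ± 0.06), with a control mean of 1165 CPM on the side of the APOE siRNA libraries. The basal keratin genes KRT5 and KRT14 fell by 0.48 and 0.29 on the log2 scale (SE 0.07 for both), and KRT15 fell by 0.61 (SE 0.07). The genes for the integrin alpha chains ITGA2 (0.64 ± 0.10) and ITGA3 (0.48 ± 0.07) rose. The stress keratins KRT16 and KRT6C, which mark activated epidermis, fell by 0.52 and 0.67 on the log2 scale (SE 0.12 and 0.13), and these were 2 of the 5 stress keratin genes tested.

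Spinous and early differentiation genes were mostly lower with ATF3 siRNA, with 14 of 26 lower, 3 higher and a median of -0.46. The desmosomal cadherin genes DSC3 and DSG3 moved together. DSC3 was at 292, 293 and 279 CPM against 557, 468 and 454 CPM (-0.78 ± 0.08, adjusted p = 3.09e-05), and DSG3 at 383, 427 and 430 CPM against 713, 614 and 629 CPM (-0.66 ± 0.08, adjusted p = 7.31e-05). DSC2 fell by 0.80 on the log2 scale (SE 0.08) and PERP, a tetraspan desmosome protein gene, by 0.48 (SE 0.07). The keratin of committed cells, KRT10, was at 21.6, 30.5 and 24.2 CPM against 42.4, 38.9 and 39.4 CPM (-0.66 ± 0.12). Its partner KRT1 was rare, with 6, 1 and 3 reads against 87, 24 and 19. KRT1 had a log2 fold change of -3.71 ± 0.69 (adjusted p = 1.39e-03), and -2.78 without APOE siRNA replicate 1, which held most of its reads. KRTDAP, a secreted differentiation protein of the spinous layer, was at 3.93, 4.14 and 4.40 CPM against 15.2, 11.2 and 11.9 CPM (-1.62 ± 0.15), and SBSN fell by 1.07 on the log2 scale (SE 0.15). For KRTDAP and SBSN the control means of 0.636 and 0.937 CPM were below both groups. The 3 members that rose were KRT13 (1.09 ± 0.09), KRT80 (0.75 ± 0.09) and the plakophilin gene PKP1 (0.43 ± 0.10).

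Late differentiation genes split within the pathway. Of 30 tested cornified envelope genes, 14 were higher and 9 lower, with 8 and 3 of them at least 2-fold apart. PADI2, a peptidylarginine deiminase that converts arginine to citrulline in epidermal proteins, had the largest log2 fold change among the genes taken by the rule for named genes. It was at 6.12, 4.91 and 6.74 CPM against 0.154, 0.266 and 0.123 CPM, or 341 against 10 reads (4.96 ± 0.31, adjusted p = 6.51e-07), with a control mean of 1.42 CPM between the groups. Its neighbour in function, PADI1, was at 3.75, 3.97 and 5.75 CPM against 0.618, 0.905 and 1.54 CPM (2.15 ± 0.31). PPL, the envelope plakin periplakin, was at 211, 215 and 241 CPM against 125, 114 and 110 CPM (0.94 ± 0.08, adjusted p = 5.04e-06). TGM1, which cross-links the envelope, was at 61.4, 93.3 and 105 CPM against 50.8, 45.9 and 42.4 CPM (0.90 ± 0.16). SPRR2A (1.29 ± 0.13), SPRR2D (1.08 ± 0.13) and ECM1 (1.27 ± 0.15) rose. IVL, involucrin, was called higher at 0.32 ± 0.11 (adjusted p = 3.67e-02), but its groups overlapped, and the call was lost in 4 of the 6 fits without 1 library. In the other direction were the filaggrin gene FLG, at 1.34, 1.27 and 1.82 CPM against 3.81, 3.46 and 3.02 CPM (-1.23 ± 0.22), the related HRNR (-1.70 ± 0.40) and the small proline-rich genes SPRR1A (-0.57 ± 0.13) and SPRR1B (-0.55 ± 0.12). Members of the SPRR, keratin, AKR1C, HLA, APOL and histone families share long similar stretches, and no source used here says how reads that match several genes were counted, so the split between such members is uncertain. For TGM1, SPRR1B, IVL and KRT16 the control means of 11.3, 28.4, 24.5 and 170 CPM lay below both groups.

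Of 11 antimicrobial genes, 2 were higher, 3 were lower and 6 were not called. Among all genes tested the shares were 19.7% higher and 16.7% lower, so these few calls show no lean of the list. S100A9, the calprotectin subunit, was at 296, 306 and 306 CPM against 178, 145 and 152 CPM (0.94 ± 0.08, adjusted p = 7.16e-06). LCN2, an iron-siderophore binder, rose by 1.15 ± 0.16. PI3, the elastase inhibitor elafin, was at 40.5, 41.6 and 48.6 CPM against 90.6, 81.0 and 86.0 CPM (-0.98 ± 0.09).

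**Figure D4:**
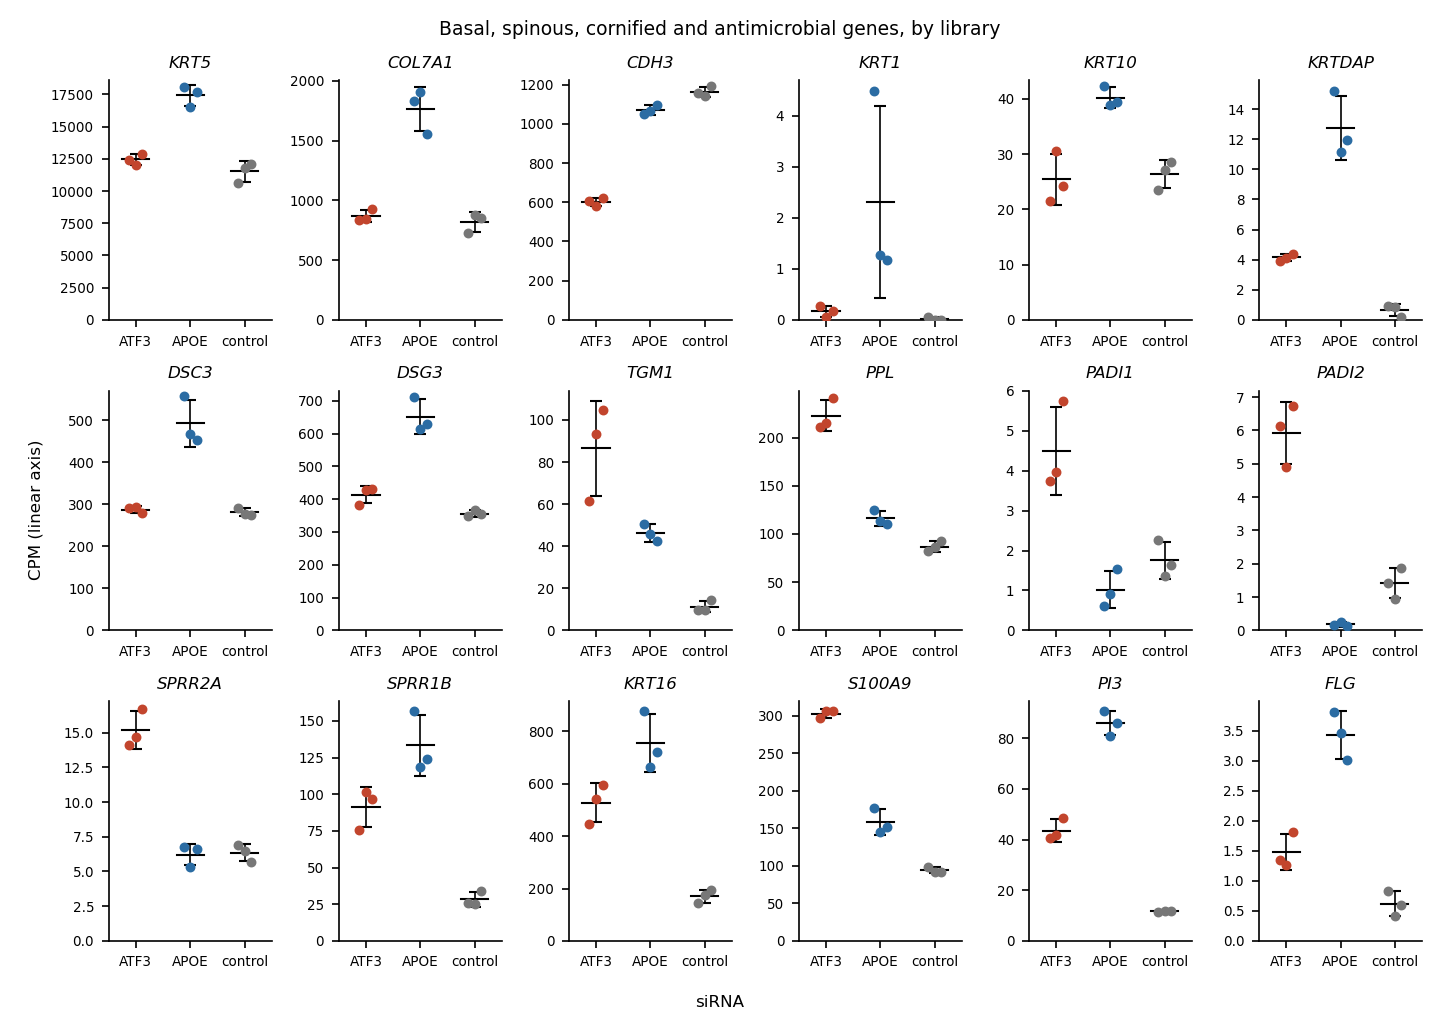
Points, means and 1 SD error bars are drawn as levels in CPM on linear axes from 0 for genes of basal, spinous and cornified layers and for antimicrobial genes, in the ATF3, APOE and control siRNA libraries. PADI1, PADI2, PPL, TGM1, SPRR2A and S100A9 are highest with ATF3 siRNA, while KRT5, COL7A1, KRT10, KRTDAP, DSC3, DSG3, SPRR1B, PI3 and FLG are highest with APOE siRNA.

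Of 32 genes that p53 activates, 18 were lower and 5 higher, with a median of -0.29. TP53INP1, a stress-induced p53 cofactor, was at 29.1, 33.6 and 28.4 CPM with ATF3 siRNA and at 120, 113 and 104 CPM with APOE siRNA (-1.89 ± 0.09, adjusted p = 2.08e-07), and the control mean of 14.3 CPM was below both. CCNG1 and ZMAT3 both fell by 0.89 on the log2 scale (SE 0.08 and 0.10). PHLDA3 fell by 0.75 (SE 0.14), MDM2, the ubiquitin ligase of p53, by 0.38 (SE 0.09), and the cell-cycle inhibitor gene CDKN1A by 0.33 (SE 0.07). GADD45A rose by 0.62 ± 0.08.

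Targets of NRF2, the activator of antioxidant genes, showed a similar lean, with 13 of 26 lower, 3 higher and a median of -0.42. The aldo-keto reductases led, and AKR1C3 was at 11.6, 12.6 and 13.1 CPM against 41.5, 44.2 and 40.5 CPM (-1.76 ± 0.09, adjusted p = 2.92e-07). AKR1C2 fell by 1.96 (SE 0.14), AKR1C1 by 1.62 (SE 0.12) and AKR1B10 by 1.86 (SE 0.28) on the log2 scale. The ferritin light chain gene FTL was at 1372, 1150 and 1154 CPM against 2010, 2399 and 2488 CPM (-0.91 ± 0.10). The heavy chain gene FTH1 fell by 0.54 (SE 0.13), the pentose phosphate enzyme gene TKT by 0.64 (SE 0.07), and TXNRD1 by 0.71 (SE 0.10). The transporters of the list parted, with ABCC2 at -1.54 ± 0.12 and ABCC3 at 1.43 ± 0.13. Control means of AKR1C1, AKR1C3, FTL and TKT, at 30.4, 11.6, 1105 and 698 CPM, were near those with ATF3 siRNA.

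Of 40 targets of ATF4 and the integrated stress response, 13 were higher and 8 lower, with a median of -0.01. NUPR1, a stress-induced chromatin protein, was at 20.9, 27.1 and 23.0 CPM against 71.6, 72.3 and 70.7 CPM (-1.60 ± 0.09, adjusted p = 5.38e-07). The mTORC1 inhibitors SESN2 (-1.02 ± 0.08) and DDIT4 (-0.58 ± 0.06) fell. The amino acid genes WARS (0.61 ± 0.08), NARS (0.67 ± 0.07), PSAT1 (0.52 ± 0.08) and SLC1A5 (0.59 ± 0.08) rose, as did the phosphatase subunit gene PPP1R15A (0.87 ± 0.08). Of 20 genes of the unfolded protein response, 7 rose, among them HERPUD1 (0.89 ± 0.09) and DNAJB11 (0.76 ± 0.08), and 1 fell, HSPA5, the chaperone BiP (-0.32 ± 0.07). Of 20 heat shock genes 5 rose and 2 fell, a share of calls of 35.0% that is close to that of all genes, with a median of 0.06. HSPA4 (0.94 ± 0.08), DNAJB1 (0.74 ± 0.06) and HSP90AA1 (0.59 ± 0.08) rose. The co-chaperone gene DNAJA1 fell by 0.41 on the log2 scale, and the small heat shock gene HSPB1 was at 859, 1110 and 1322 CPM against 2106, 1902 and 2217 CPM (-0.92 ± 0.13), with a control mean of 478 CPM below both groups.

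In the family of ATF3 itself, 26 genes for ATF and AP-1 factors were tested, of which 5 were higher and 7 lower, the targeted ATF3 included. JUN, a frequent partner of ATF3, was at 185, 186 and 217 CPM with ATF3 siRNA and at 296, 306 and 312 CPM with APOE siRNA (-0.64 ± 0.08, adjusted p = 6.99e-05). FOSB fell by 1.55 (SE 0.19), MAF by 1.51 (SE 0.17) and ATF7 by 0.80 (SE 0.12) on the log2 scale. FOSL1, the FRA-1 gene, rose, at 132, 116 and 133 CPM against 89.9, 99.7 and 102 CPM (0.39 ± 0.08). For JUN the control mean of 211 CPM was beside the ATF3 siRNA libraries, and for FOSL1 the control mean of 156 CPM was above both groups.

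Genes of lipid transport, where APOE acts, showed calls in both directions. Of 14 apolipoprotein and lipid carrier genes, APOE included, 7 were higher and 3 lower. The APOL genes, whose products are interferon-inducible channel-like proteins and not classical lipoprotein parts, made up 4 of the 7, with APOL2 at 0.94 ± 0.08, APOL3 at 0.78 ± 0.15, APOL1 at 0.74 ± 0.09 and APOL6 at 0.73 ± 0.07. LIPG, endothelial lipase, was at 134, 119 and 123 CPM against 67.3, 68.4 and 71.1 CPM (0.86 ± 0.07, adjusted p = 4.87e-06). LXR targets are genes that oxysterol-sensing receptors switch on. Of 13 tested genes in a list of LXR targets and sterol export genes, 3 were higher, APOE included, and 5 lower. PLTP, the phospholipid transfer protein, was at 59.99, 74.0 and 77.9 CPM against 149, 146 and 162 CPM (-1.11 ± 0.10, adjusted p = 6.83e-06). ABCA12, the lipid transporter of lamellar granules, fell by 0.76 (SE 0.12), MYLIP, which degrades the LDL receptor, by 0.62 (SE 0.10), ABCG1, a sterol exporter, by 0.40 (SE 0.09) and SREBF1 by 0.39 (SE 0.09). The receptor gene NR1H3, LXR alpha, rose by 0.96 ± 0.17. Control means of PLTP, ABCG1 and SREBF1, at 40.7, 41.3 and 432 CPM, were below both groups.

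Of 26 cholesterol synthesis genes 10 were higher and 4 lower. HMGCS1, which makes the precursor of mevalonate, was at 407, 365 and 311 CPM against 180, 174 and 184 CPM (1.01 ± 0.09, adjusted p = 9.69e-06). PMVK rose by 1.23 ± 0.12, FDPS by 0.58 ± 0.08, LSS by 0.57 ± 0.07 and MSMO1 by 0.52 ± 0.08. Of 25 fatty acid synthesis genes 24.0% were called, a smaller share than the 36.5% of all genes tested. Among them 5 fell, including the desaturase gene FADS1 (-0.55 ± 0.08), and 1 rose, the elongase gene ELOVL7 (0.56 ± 0.13). Of 15 genes of cholesterol ester turnover and sterol trafficking, 3 were higher and 4 lower, with a median of 0.05. In that list CH25H, which makes 25-hydroxycholesterol and is interferon-inducible, rose on 77 against 22 reads (1.72 ± 0.36). Of 33 lysosomal genes, 11 fell and 5 rose. The cathepsin genes CTSD and CTSS parted, with CTSD at 189, 215 and 235 CPM against 403, 390 and 475 CPM (-0.99 ± 0.10) and CTSS at 4.74, 8.16 and 7.15 CPM against 1.75, 1.70 and 0.924 CPM (2.16 ± 0.27).

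Of 11 glucocorticoid-responsive genes 5 were lower and 3 higher. TSC22D3, the glucocorticoid-induced leucine zipper GILZ, was at 68.3, 65.2 and 71.3 CPM against 202, 186 and 222 CPM (-1.58 ± 0.08, adjusted p = 2.92e-07). ZBTB16, the transcription factor PLZF, was at 1.30, 1.49 and 2.05 CPM against 8.44, 6.76 and 7.21 CPM (-2.23 ± 0.20), and KLF9 fell by 0.78 (SE 0.11). ANGPTL4, an inhibitor of lipoprotein lipase that several nuclear receptors and hypoxia also induce, went the other way, at 24.97, 31.3 and 31.7 CPM against 4.01, 5.27 and 3.51 CPM (2.77 ± 0.16, adjusted p = 4.59e-07). HSD11B1, which regenerates cortisol, rose by 1.03 ± 0.12. Among 16 clock genes, of which 5 rose and 4 fell, CRY2 fell by 1.03 (SE 0.09), and TEF (1.01 ± 0.09) and NR1D1 (0.81 ± 0.12) rose. Among 12 genes of retinoid handling, of which 3 rose and 4 fell, ALDH1A3, which makes retinoic acid, was at 447, 347 and 330 CPM against 169, 180 and 181 CPM (1.08 ± 0.10), and RDH10, an enzyme of the preceding step, fell by 0.75 (SE 0.13).

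Of 28 genes for EGF family ligands, receptors and ERK feedback, 14 were higher and 5 lower, with a median of 0.21. The receptor genes moved apart. ERBB2 was at 132, 141 and 165 CPM against 72.4, 71.7 and 70.9 CPM (1.02 ± 0.08, adjusted p = 4.90e-06), and EGFR at 518, 460 and 466 CPM against 736, 756 and 610 CPM (-0.54 ± 0.09, adjusted p = 6.47e-04). Among ligands, TGFA (0.50 ± 0.07) and AREG (0.50 ± 0.07) rose and EREG fell (-0.74 ± 0.08). The feedback genes DUSP4 (0.61 ± 0.08), SPRED1 (0.60 ± 0.07) and PHLDA1 (0.53 ± 0.07) rose. In the Notch pathway, with 3 of 18 higher and 6 lower, the receptor gene NOTCH2 was at 318, 270 and 302 CPM against 137, 137 and 98.7 CPM (1.25 ± 0.12). NOTCH3 fell by 0.50 (SE 0.12), and the ligand gene JAG2 fell by 0.85 (SE 0.09). Among 26 Wnt genes, 6 were higher and 5 lower, close to the shares among all genes. The ligands WNT7A (0.78 ± 0.08) and WNT7B (1.44 ± 0.14) rose, and WNT10A fell (-1.65 ± 0.29). AXIN2, a feedback target of beta-catenin, rested on 1, 0 and 5 reads against 44, 31 and 20, with a log2 fold change of -3.96 ± 0.61 (adjusted p = 4.06e-04) that was -5.80 without ATF3 siRNA replicate 3. Of 25 TGF-beta and activin genes, 9 fell and 3 rose. LTBP1, a latent TGF-beta binding protein gene (-1.09 ± 0.09), and the feedback inhibitor gene SMAD7 (-0.97 ± 0.14) were among those that fell. The receptor genes ACVR1 (0.77 ± 0.12) and TGFBR1 (0.42 ± 0.08) were among those that rose.

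Genes of cell division were more often higher than lower. Of 45 mitosis genes 20 were higher and 2 lower, with a median of 0.23, and of 40 DNA replication genes 14 were higher and 3 lower. MCM6, a subunit of the replicative helicase, was at 74.1, 62.0 and 59.9 CPM against 18.4, 16.6 and 20.3 CPM (1.83 ± 0.11, adjusted p = 5.07e-07). HMMR rose by 1.69 ± 0.13, the kinetochore motor gene CENPE by 1.41 ± 0.14, AURKA by 0.75 ± 0.08 and MKI67, a proliferation marker, by 0.73 ± 0.13. RRM2, the inducible subunit of ribonucleotide reductase, was in the minority, at -0.34 ± 0.07, while RRM1 rose by 0.63 ± 0.08. The control means of MCM6 (67.1 CPM), HMMR (26.5 CPM) and CENPE (39.8 CPM) were at the level of the ATF3 siRNA libraries. Replication-dependent histone genes pointed the other way, with 10 of 16 lower, 1 higher and a median of -0.76. HIST1H1C fell by 1.09 (SE 0.11) and HIST1H2BD by 1.14 (SE 0.12), and HIST1H2BH rose by 1.59 ± 0.31. Most messages of this family carry no poly(A) tail, and RNA was selected with poly-T beads, so only a part of them is counted.

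All 13 mitochondrially encoded genes had negative log2 fold changes, and 9 were called, with a median of -0.41. MT-CYB was at 891, 805 and 787 CPM against 1268, 1405 and 1454 CPM (-0.73 ± 0.08), and MT-CO1 was at -0.43 ± 0.07. Among 49 nuclear genes of oxidative phosphorylation, 6 were higher and 5 lower, with a median of -0.04. Their share of calls of 22.4% was below the 36.5% of all genes tested. Of 72 cytosolic ribosomal protein genes 25 were lower and 4 higher, with a median of -0.14. RPL13A was at 1917, 1858 and 1797 CPM against 2541, 2540 and 2577 CPM (-0.46 ± 0.06). In the hypoxia and glycolysis list 15 of 35 genes were lower and 5 higher. The carbonic anhydrase gene CA12 fell by 1.03 (SE 0.08), the vasodilator peptide gene ADM by 0.86 (SE 0.08) and the glucose transporter gene SLC2A1 by 0.65 (SE 0.08), while HK2 rose by 0.36 ± 0.08.

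The 15 largest rises and 15 largest falls among called protein-coding genes at 5 CPM or more in a group, without overlap between the groups, held several genes outside the lists. A separation of the groups in this sense was found in 48.5% of all genes tested. LGALS9, the lectin galectin-9, was at 8.17, 12.2 and 13.4 CPM with ATF3 siRNA and at 1.49, 0.958 and 0.924 CPM with APOE siRNA (3.30 ± 0.25, adjusted p = 2.75e-06). NLRP3, the inflammasome sensor, was at 6.21, 5.02 and 4.22 CPM against 0.669, 1.28 and 0.801 CPM (2.49 ± 0.27), and its control mean of 9.49 CPM was above both groups. The LIM-domain adaptor gene LMO2 (2.69 ± 0.37), the deubiquitinase gene BRCC3 (2.45 ± 0.18), TMEM14B (2.44 ± 0.15), the dehydrogenase gene DHRS2 (2.42 ± 0.19), C1QTNF1 (2.36 ± 0.18) and the interferon-inducible factor gene BATF2 (2.34 ± 0.21) followed. Among the falls, DCBLD1, a transmembrane protein gene, was at 49.9, 56.7 and 61.3 CPM against 229, 237 and 242 CPM (-2.08 ± 0.08, adjusted p = 1.44e-07). The control mean of DCBLD1 was 59.5 CPM, within the range of the ATF3 siRNA libraries. RNF44 fell by 1.78 (SE 0.09), the autophagy kinase gene ULK1 by 1.70 (SE 0.10), the exchange factor gene VAV3 by 1.69 (SE 0.10), the agrin receptor gene LRP4 by 1.74 (SE 0.09) and the homeobox gene HOXA5 by 2.09 (SE 0.22). GPX2, a glutathione peroxidase gene, fell by 1.88 (SE 0.16). The control mean was nearer to the ATF3 siRNA mean for 11 of the 15 rises and 13 of the 15 falls. For TMEM14B and VAV3 it was 28.2 and 15.6 CPM, within or beside the range of the ATF3 siRNA libraries, while for PADI2, MMP9 and ELFN2 it lay between the groups.

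**Figure D5:**
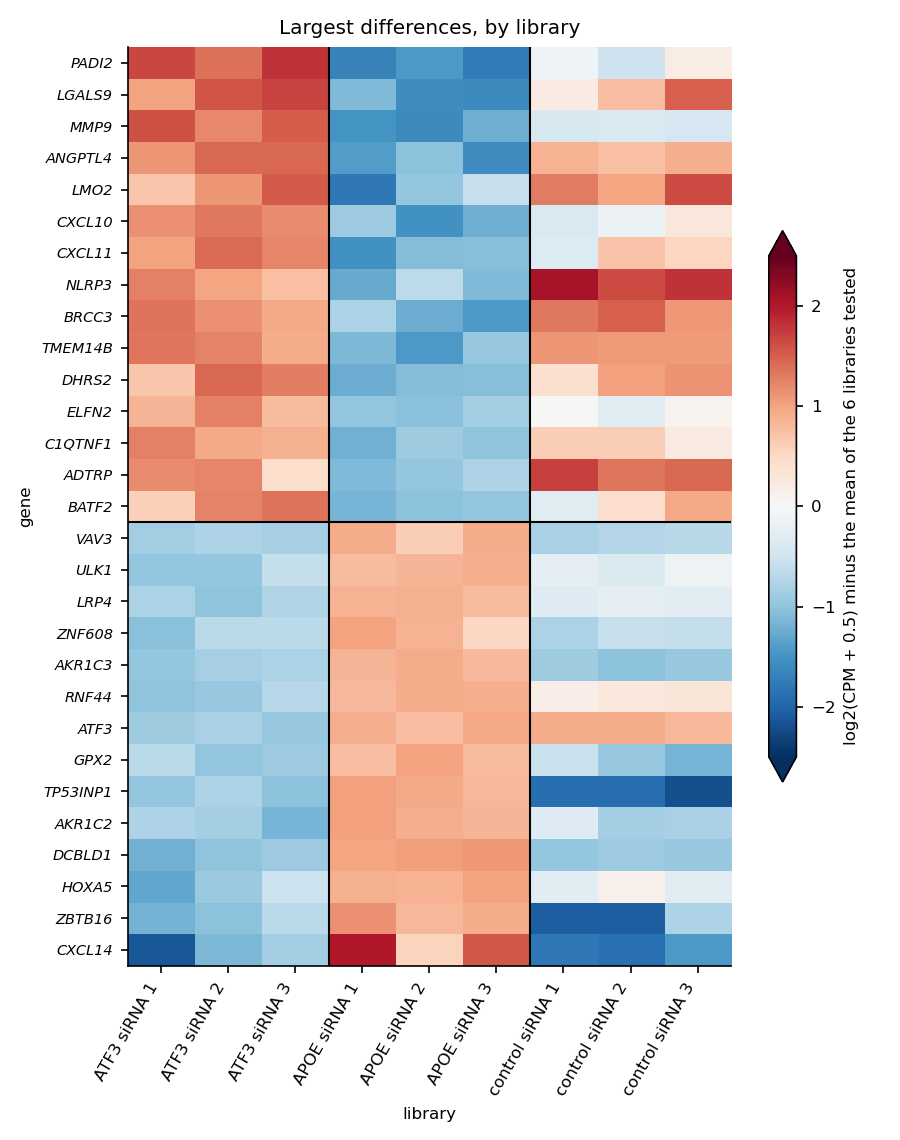
Rows are genes among the 15 largest rises and 15 largest falls, columns are the 3 ATF3 siRNA, 3 APOE siRNA and 3 control siRNA libraries, and color is log2(CPM + 0.5) minus the mean of the 6 libraries tested, from blue (lower) to red (higher). The ATF3 and APOE siRNA blocks differ in every row by construction of the rule, and the control block is red for NLRP3 and blue for TP53INP1 and ZBTB16.

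Markers of other cell types were summed in each library, over the genes of each list with counts. The immune markers CD3E, PTPRC, LYZ, MS4A1, NKG7, TYROBP and CD1A had 0 reads in all 6 libraries, and the summed immune list was at 3.35 to 5.278 CPM with ATF3 siRNA and 6.072 to 6.774 CPM with APOE siRNA. Of the melanocyte markers, KIT and TYR had 0 reads, and the sums were 3.308 to 3.87 CPM and 2.982 to 3.859 CPM. Fibroblast markers summed to 39.71 to 50.49 CPM with ATF3 siRNA and to 82.31 to 94.89 CPM with APOE siRNA, mostly from COL1A1, which was lower with ATF3 siRNA at -1.18 ± 0.10 (adjusted p = 5.85e-06). FBLN1, the other marker tested, was at -0.25 ± 0.16 and was not called. COL3A1, DPT and POSTN, which fibroblasts also express, had 0 reads in all 6 libraries. Of the 3 endothelial markers tested, ERG alone was called, at 1.52, 2.65 and 2.11 CPM against 0.875, 0.799 and 0.493 CPM (1.497 ± 0.32), and the list summed to 44.89 to 52.78 CPM and 47.5 to 55.92 CPM. The basal keratinocyte genes summed to between 46800.0 and 50600.0 CPM with ATF3 siRNA and between 53670.0 and 54870.0 CPM with APOE siRNA, and all 19 of them passed the filter on low counts.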

How the data were processed

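Libraries were made from poly-T selected RNA, per the labels' protocols, and the protocol allows both directional and non-directional libraries. Reads were aligned with HISAT2 2.0.5 to hg38 and counted with featureCounts 1.5.0-p3, per the submitters' processing notes. The strand setting and the annotation release are not given in the sources used here, so reads of overlapping antisense genes may be shared. The deposited gene table holds whole-number counts for 58735 genes, which were used for every test. The deposited FPKM values, scaled by the authors for gene length and depth, entered no test and are not printed. The counts of the 6 libraries alone were filtered with filterByExpr, normalised by TMM and tested with edgeR 4.0.16 (quasi-likelihood, R 4.3.3), with Benjamini-Hochberg adjustment over 14218 genes and a threshold of 0.05. The standard error is the absolute log2 fold change divided by the square root of F. Control libraries were scaled to the same reference library. The 95% intervals of count ratios are exact conditional binomial intervals and cover counting error only.

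The comparison and the 43 gene lists were chosen with earlier results of these data known. The rule for named genes took the 3 siRNA targets, the 15 largest rises and falls (called, protein-coding, at least 5 CPM in a group, groups apart) and, per list, the 6 called members of smallest adjusted p at most, with 2 of the minority direction. Named after their values were seen were AKR1B10, APOL3, AREG, CCL5, CDKN1A, CMPK2, CXCL2, FBLN1, FTH1, HK2, HRNR, IFI44, IL1RN, IL36G, IL6, ISG15, ISG20, ITGB8, IVL, KRT1, KRT10, KRT14, MDM2, MKI67, MMP1, MMP10, NFKB1, NFKBIA, NOTCH3, OAS2, PERP, PHLDA1, PHLDA3, PKP1, PLAU, PLAUR, PSAT1, PTGS2, RELB, RSAD2, SBSN, SERPINE2, SLC1A5, SPARC, SPRR1A, SPRR1B, TGM1, TKT, TNF, TNFAIP3 and TXNRD1. Some items are not reported here. Alternatives were other size factors, other filters, DESeq2 1.42.0, all 12 libraries, a replicate block and leaving out each library. The replicate numbers were not taken as pairs, since the labels do not say that they pair the libraries. Deviations of same-numbered libraries of the groups correlated at 0.412, -0.032 and 0.307. ATF3 siRNA library 1 and APOE siRNA library 3 correlated at -0.324, and ATF3 siRNA library 3 and APOE siRNA library 1 at -0.417.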

Additional observations from a re-analysis of the deposited data

How the results depend on the processing

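The named genes of this section leave out NFKBIA, ACVR1 and TGFBR1, which were not followed under the alternatives. No call of the named genes changed direction under the alternatives, of 13, that gave it a value. The counts of called genes stayed within 1.5 times of 2804 higher and 2379 lower under each of them, and ranged from 2222 to 2822 higher and from 1794 to 2445 lower when 1 library was left out. The stricter filter, at least 1 CPM in 3 libraries and a mean of at least 50 counts, left 341 genes at least 2-fold higher and 157 at least 2-fold lower in place of 524 and 314, because it removes low genes, where large fold changes are common. Leaving out 1 library gave 507 to 533 and 302 to 368. The log2 fold change of ATF3 ran from -1.85 to -1.76, that of APOE from 3.999 to 4.67 and that of CXCL14 from -3.91 to -2.94. The stricter filter removed APOE and 14 of the 229 other named genes, so it gave no value there. Of the 229, only IVL lost its call under an alternative that gave it a value.

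The replicate block raised the counts to 3097 higher and 2794 lower, and the log2 fold changes with it were -1.80 for ATF3, 4.31 for APOE and -3.40 for CXCL14, so no call among the named genes was lost under the block. Libraries 1 and 3 of each group correlated best with the library of their own number in the other group, and library 2 of neither group did. The second principal component held scores of 13.26, -1.523 and -13.33 for the ATF3 siRNA libraries and 10.32, -0.342 and -8.377 for the APOE siRNA libraries, and whether a number marks a shared day or plate is not given in the labels used here. Genes below about 1 CPM rest on few reads, and the 3 libraries of a group limit the smallest exact permutation p to 0.1.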

Other observations

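Some families outside the lists were noticed after the values were seen, and they are described by counts without a test. Of 9 tested HOXA genes, which set positional identity, 5 were lower with ATF3 siRNA and none was higher. HOXA9 was at 45.7 ± 3.53 CPM (SD, n = 3) with ATF3 siRNA and 105.0 ± 3.62 CPM with APOE siRNA, a log2 fold change of -1.20 ± 0.08 (SE, adjusted p = 8.27e-07), and HOXA10 was at -0.86 ± 0.15. The HOXC genes did not share 1 direction, with 4 of 8 lower and 1, HOXC10, higher at 0.81 ± 0.11. Of 16 semaphorin genes 6 were higher and 6 lower. Of 18 small nucleolar RNA host genes, 11 were lower and none was higher, with a median of -0.32. SNHG7 was at 44.4 ± 4.64 CPM against 96.8 ± 6.99 CPM (-1.13 ± 0.09).

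Of 29 autophagy genes of the ULK, ATG and GABARAP families, with MAP1LC3 genes and SQSTM1, 11 were lower and 2 higher, with a median of -0.11 and 11 of the 29 above 0. Besides ULK1, these were led by ATG9A, which codes for a lipid scramblase of autophagy vesicles, at 39.2 ± 3.996 CPM against 98.2 ± 4.40 CPM (-1.33 ± 0.08, adjusted p = 8.20e-07). GABARAPL1 was at 19.4 ± 0.256 CPM against 41.2 ± 2.03 CPM (-1.09 ± 0.08), and the cargo receptor gene SQSTM1 was at -0.47 ± 0.07. Of 20 NLRP, caspase and gasdermin genes, with the adaptor gene PYCARD, 12 were higher and 1 was lower. NLRP10 was at 3.36 ± 0.185 CPM against 0.786 ± 0.195 CPM (2.08 ± 0.24), the pore-forming GSDMD at 53.7 ± 3.18 CPM against 33.9 ± 2.90 CPM (0.66 ± 0.09), and CASP2 was the member that was lower, at -0.58 ± 0.09. Of 32 ARHGEF and DOCK genes, which code for exchange factors, 19 were higher and 2 lower, with a median of 0.38. ARHGEF3 was at 66.1 ± 4.65 CPM against 28.9 ± 1.06 CPM (1.19 ± 0.08, adjusted p = 1.05e-06), and DOCK8 at 2.75 ± 0.290 CPM against 0.891 ± 0.146 CPM (1.61 ± 0.24).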
